A study of Mus musculus with 42 samples.

Results

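The genes described here are 32 genes of glucose uptake, glycolysis, lactate production and export, the hypoxia-inducible factor and the pentose phosphate pathway, followed through mouse macrophages exposed to lipopolysaccharide or palmitate. They were taken by name, as the rows of the count table whose Ensembl identifier maps to a symbol on a written list, by a rule that uses no measured value, although the list was written with earlier results of these data known. All 32 symbols were found, with 1 identifier each, among 37310 identifiers in the table. All 32 passed the filter on low counts and were among the 11624 genes tested.

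The RNA-seq libraries were 42 in number, 3 in each of 14 groups, and were made from bone marrow-derived macrophages (BMDM), which are macrophages grown in vitro from marrow precursors with L929 cell-conditioned medium. Cells labelled KO carried Irf5 flox/flox alleles with Cre driven from the LysM (Lyz2) locus, a driver active across myeloid cells, and cells labelled WT were their wild-type counterparts. Cells of each genotype were untreated at 0 h, or were kept for 2 or 24 h as Control, with the saturated fatty acid palmitate, or with lipopolysaccharide (LPS), the bacterial cell wall component that activates Toll-like receptor 4. Mice of the study were young adult males by its methods. Whether the 3 libraries of a group came from separate animals is not given in the sources used here, so p-values measure the spread between these libraries, which may be technical.

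Total counts ran from 2848793 to 7743442 per library, with a median of 5625399, and the 32 genes together held between 0.711% and 1.2% of a library. Counted over the whole gene, Irf5 ranged from 209.5 to 389 CPM (counts scaled by TMM to a common library size) under the label WT and from 267 to 430.5 CPM under the label KO. Lyz2, the locus that drives Cre, ranged from 8025 to 14587 CPM under WT and from 4682 to 8766 CPM under KO. The table therefore did not show less Irf5 in the libraries labelled KO, and "KO" below means only that label. Counts over the whole gene do not test the deletion, which would need counts by exon. All 8 macrophage markers were present in every library, with summed levels of 9800.4 to 23595 CPM, and the 5 erythroid markers never exceeded 3 counts each. The macrophage sum, which includes Lyz2, had a median of 15548.3 CPM in WT and 11051.5 CPM in KO. Granulocyte markers (8 genes) summed to a median of 48.7 CPM in WT and 118.1 CPM in KO, and fibroblast markers (5 genes) to 2.52 and 42.6 CPM, with 5 KO libraries above 100 CPM and none in WT. These marker levels moved with the genotype label and their part in the results was not tested. In bulk libraries such as these, fewer cells of a type and less RNA per cell cannot be told apart.

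Glycolysis takes glucose in through membrane transporters, traps it by phosphorylation and converts it to pyruvate, which lactate dehydrogenase can reduce to lactate for export. The pentose phosphate pathway branches off at glucose phosphate, makes NADPH in its oxidative arm and interconverts sugar phosphates in its non-oxidative arm. Macrophages activated by LPS are known for a high rate of glycolysis, and the transcription factor HIF-1α is a known regulator of many of the genes that carry it.

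Promoter sequence is shown first for the genes on which the results below turn. These are the 5 genes that LPS raised at both times in both genotypes (Slc2a6, Hk2, Hk3, Pfkfb3 and Hif1a). Ldhb and Aldoc follow, the genes with the largest falls at 24 h among those that fell in both genotypes. The Hk2 and Hk3 results at 2 h and the Aldoc result in WT at 24 h were lost under some alternatives, as given below. Each line holds the 250 bases before the most 5′ start listed by RefSeq for the gene (GRCm38.p6), 5′ to 3′ on the strand of the gene. Capitals mark ACGTG or GCGTG on either strand, the cores of the motif known to be bound by hypoxia-inducible factors.

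Slc2a6: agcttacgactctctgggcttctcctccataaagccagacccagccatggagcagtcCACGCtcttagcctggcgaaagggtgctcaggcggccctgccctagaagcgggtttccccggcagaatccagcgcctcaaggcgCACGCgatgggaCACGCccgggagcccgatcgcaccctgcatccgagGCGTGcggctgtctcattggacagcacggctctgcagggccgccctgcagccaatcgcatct
Hk2: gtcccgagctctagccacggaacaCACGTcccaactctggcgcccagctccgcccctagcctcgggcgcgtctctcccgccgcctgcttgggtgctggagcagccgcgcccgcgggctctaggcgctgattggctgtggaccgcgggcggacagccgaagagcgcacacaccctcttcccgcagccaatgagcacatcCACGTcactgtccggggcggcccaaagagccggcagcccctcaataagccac
Hk3: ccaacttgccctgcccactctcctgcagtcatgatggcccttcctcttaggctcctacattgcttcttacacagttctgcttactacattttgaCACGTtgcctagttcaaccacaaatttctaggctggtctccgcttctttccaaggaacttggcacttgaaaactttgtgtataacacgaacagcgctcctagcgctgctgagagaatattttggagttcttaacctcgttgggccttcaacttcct
Pfkfb3: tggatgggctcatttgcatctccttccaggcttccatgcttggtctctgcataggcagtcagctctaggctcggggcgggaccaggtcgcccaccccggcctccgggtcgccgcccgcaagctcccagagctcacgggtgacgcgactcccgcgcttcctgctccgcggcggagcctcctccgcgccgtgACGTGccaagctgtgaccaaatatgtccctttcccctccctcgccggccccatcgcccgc
Hif1a: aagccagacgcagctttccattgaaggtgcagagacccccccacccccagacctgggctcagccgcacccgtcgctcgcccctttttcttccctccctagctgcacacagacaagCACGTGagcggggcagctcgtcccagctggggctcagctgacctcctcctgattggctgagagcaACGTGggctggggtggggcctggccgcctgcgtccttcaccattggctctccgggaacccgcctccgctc
Ldhb: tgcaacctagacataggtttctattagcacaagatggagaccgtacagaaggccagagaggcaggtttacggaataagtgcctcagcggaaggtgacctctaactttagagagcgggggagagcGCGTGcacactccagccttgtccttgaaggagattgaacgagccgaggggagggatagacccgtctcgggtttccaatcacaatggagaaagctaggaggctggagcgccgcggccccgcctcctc
Aldoc: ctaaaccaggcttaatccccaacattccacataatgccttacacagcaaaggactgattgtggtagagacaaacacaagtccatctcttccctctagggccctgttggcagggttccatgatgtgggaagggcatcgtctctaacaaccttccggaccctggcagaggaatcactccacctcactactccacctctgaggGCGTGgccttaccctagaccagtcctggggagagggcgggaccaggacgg

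The windows lie at chr2:27027999-27028248 (minus strand) for Slc2a6, chr6:82774455-82774704 (minus) for Hk2, chr13:55021386-55021635 (minus) for Hk3, chr2:11553930-11554179 (minus) for Pfkfb3, chr12:73907617-73907866 (plus) for Hif1a, chr6:142507958-142508207 (minus) for Ldhb and chr11:78322823-78323072 (plus) for Aldoc. Slc2a6 held 4 GCGTG and no ACGTG, whereas Hk2 held 2 ACGTG, Hk3 and Pfkfb3 held 1 each, and Hif1a held 3 that include a palindromic CACGTG counted on both strands. Ldhb and Aldoc held 1 GCGTG each and no ACGTG. Among all 32 genes, ACGTG was found in 12 windows (37.5%) and GCGTG in 17 (53.1%), against 22.2% and 46.4% of the windows of 8900 tested genes matched by symbol and 16.5% and 28.3% of 27025 genes of the table. CACGTG, which contains ACGTG, was found in 4 of the 32 windows (12.5%), in 8.76% of those of the tested genes and in 6.04% of all. Of the 5 genes raised at both times, 4 held ACGTG and 1 held GCGTG. All 5 genes lowered at 24 h in both genotypes (Taldo1, Ldhb, Aldoc, Pfkp and Pgd) held GCGTG and 0 held ACGTG. The WT calls of Aldoc, Pfkp and Pgd were lost without some single libraries, as given below. These are matches of letters in short windows, described without a test, and say nothing of what binds there. For Hif1a, Pfkfb3 and Aldoc the GENCODE gene reaches further upstream than the RefSeq start used for the window.

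Levels of the 32 genes were compared with each other only per length, as TMM-scaled CPM per kilobase of the union of exons, averaged over the 42 libraries. Pkm (pyruvate kinase, which makes pyruvate) had the highest level, at 492 CPM per kb, followed by Aldoa (aldolase A, which splits the hexose bisphosphate) at 381 and Taldo1 (transaldolase, in the non-oxidative pentose phosphate arm) at 324. Gapdh at 147, Ldha at 100, Eno1 at 95.9, Pgk1 at 90.9 and G6pdx at 90.5 CPM per kb came next. The order of these genes depends on the length used. Eno1 has a union of 5379 bases and a longest transcript of 2027, and Gapdh has 4133 and 3289. The lowest were Slc16a1 at 2.75, Rpia at 1.42 and Egln3 at 1.30 CPM per kb. Egln3 rested on 3 to 43 counts per library and Rpia on 9 to 75, so small changes in these genes were not detectable at this depth. Slc2a6 had 10 to 506 counts, Pfkm 20 to 118, Aldoc 25 to 151, Ldhb 26 to 204 and Slc16a1 30 to 109, and the other 25 genes had at least 52 counts in every library.

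LPS at 2 h raised Slc2a1 and Slc2a6 (the glucose transporters among the 32), Hk2, Hk3, Pfkfb3, the lactate exporter Slc16a3 and Hif1a in both genotypes. It lowered Pfkfb4 in both. Against Control of the same hour, 7 of 32 genes were higher and 7 lower in WT, where 14% and 9.1% of all tested genes were called higher and lower. In KO, 8 were higher and 2 lower, where the background was 14.7% and 9.16%. A call here and below is an adjusted p under 0.05 in edgeR's quasi-likelihood test with Benjamini-Hochberg adjustment over all tested genes. The genes higher in both genotypes were 7 of 32, where 11.2% of tested genes were, and the gene lower in both was 1 of 32, where 4.88% were. The median log2 fold change over the 32 genes was -0.046 in WT and -0.022 in KO, beside -0.0094 and -0.011 over all tested genes.

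Among the glucose transporters, Slc2a6 (ENSMUSG00000036067, chr2:27021363-27027998, minus strand, mm10), which encodes GLUT6, changed most. Its level in WT was 5.42, 5.79 and 4.89 CPM in the 3 Control libraries and 45.8, 38.4 and 40.7 CPM under LPS. In KO it was 8.51, 4.65 and 2.71 CPM in Control and 57.3, 56.1 and 62.3 CPM under LPS. Every LPS library lay above every Control library of its genotype. Its log2 fold change came to 2.95 ± 0.26 (SE) with an adjusted p of 1.23e-13 in WT and 3.48 ± 0.26 (SE) with an adjusted p of 2.31e-16 in KO, or 7.70-fold and 11.1-fold. Slc2a1 (ENSMUSG00000028645, chr4:119108711-119137983, plus strand), which encodes GLUT1, the main basal glucose transporter of macrophages, stood at 105, 124 and 95.9 CPM in WT Control and 148, 179 and 154 CPM in WT LPS. In KO the Control libraries gave 103, 101 and 106 CPM and the LPS libraries 220.2, 163 and 154 CPM. The groups did not overlap in either genotype, and 1 KO library under LPS stood well above its other two. The log2 fold change of Slc2a1 was 0.57 ± 0.13 (SE) with an adjusted p of 0.000576 in WT and 0.77 ± 0.13 (SE) with an adjusted p of 4.96e-06 in KO.

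The pair of bifunctional enzymes that make and remove the sugar bisphosphate that activates phosphofructokinase moved in opposite directions at 2 h. Pfkfb3 (ENSMUSG00000026773, chr2:11471433-11554077, minus strand), known for a kinase activity that is high relative to its phosphatase activity, gave 223, 213 and 206 CPM in WT Control and 312, 288 and 300.3 CPM in WT LPS. In KO it gave 166, 184 and 182 CPM in Control and 268, 269.9 and 282 CPM under LPS. All LPS libraries were above all Control libraries. The change on the log2 scale was 0.49 ± 0.062 (SE) with an adjusted p of 9.9e-09 in WT and 0.62 ± 0.064 (SE) with an adjusted p of 1.5e-11 in KO. Pfkfb4 (ENSMUSG00000025648, chr9:108991778-109032228, plus strand) gave 31.6, 30.4 and 26.1 CPM in WT Control and 24.3, 18.5 and 18.8 CPM under LPS. Its KO levels were 28.8, 30.1 and 30.4 CPM in Control and 19.7, 18.8 and 16.7 CPM under LPS. All LPS libraries were below all Control libraries of their genotype. Pfkfb4 changed by -0.54 ± 0.13 (SE) with an adjusted p of 0.00122 in WT and -0.70 ± 0.13 (SE) with an adjusted p of 4.04e-05 in KO on the log2 scale.

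Hif1a (ENSMUSG00000021109, chr12:73901375-73947530, plus strand), the oxygen-regulated subunit of the hypoxia-inducible factor, gave 313, 329.7 and 287 CPM in WT Control at 2 h and 400.0, 538 and 419.9 CPM under LPS. The KO libraries gave 305, 253 and 291 CPM and 453, 484 and 495 CPM. The groups did not overlap, and the WT LPS libraries spread more widely than those of KO. As a log2 fold change this was 0.55 ± 0.10 (SE) with an adjusted p of 2.29e-05 in WT and 0.76 ± 0.10 (SE) with an adjusted p of 3.29e-08 in KO. Among the hexokinases, which phosphorylate glucose on entry, Hk2 rose by 0.31 in WT and 0.26 in KO and Hk3 by 0.22 and 0.30 on the log2 scale. Slc16a3, the MCT4 transporter that exports lactate, rose by 0.57 and 0.54.

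The other calls at 2 h were made in 1 genotype. In WT, Eno1 (enolase) fell by 0.27, Gapdh (glyceraldehyde phosphate dehydrogenase) fell by 0.23 and Pgam1 (phosphoglycerate mutase) fell by 0.29 on the log2 scale. The pentose phosphate dehydrogenases G6pdx and Pgd each fell by 0.21 in WT. Egln3, a prolyl hydroxylase that marks HIF-α for degradation, fell by 1.08 in WT, from 4.45, 3.64 and 5.04 CPM to 1.79, 2.26 and 2.04 CPM, on few counts. In KO, Pfkp (platelet-type phosphofructokinase) rose by 0.43 and Ldhb (lactate dehydrogenase B) fell by 0.54. For none of them was the difference between the genotypes called, as given further on. The WT count of 14 was 7 without WT Control library 3 (4 higher, 3 lower) and 7 without WT LPS library 3 (6 higher, 1 lower), and was 9 without WT Control library 1 or WT LPS library 1. Without the KO libraries whose fibroblast markers summed over 100 CPM, the KO count was 7 (5 higher, 2 lower) and Hk2, Slc16a3 and Pfkp were no longer called. Of the genes called in both genotypes at 2 h, Hk3 was not called in WT without 1 library, whichever of the 6 it was, and Slc16a3 was not called by DESeq2's Wald test in either genotype, or with RLE factors in KO. The Hk2 call in KO was lost in a fit on only the libraries compared, without any 1 Control library, and without LPS library 2. In WT the Hk2 call was lost without Control library 3. The Slc16a3 call was lost in WT without Control library 3 or LPS library 2. In KO the Slc16a3 call was lost without any 1 library except LPS library 1. Hk3 was not called in KO without LPS library 1. The summed granulocyte markers were 19.3 to 32.9 CPM in WT Control at 2 h and 45.4 to 65.9 CPM under LPS, and 64.6 to 124.96 CPM and 118.1 to 203 CPM in KO.

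**Figure D1:**
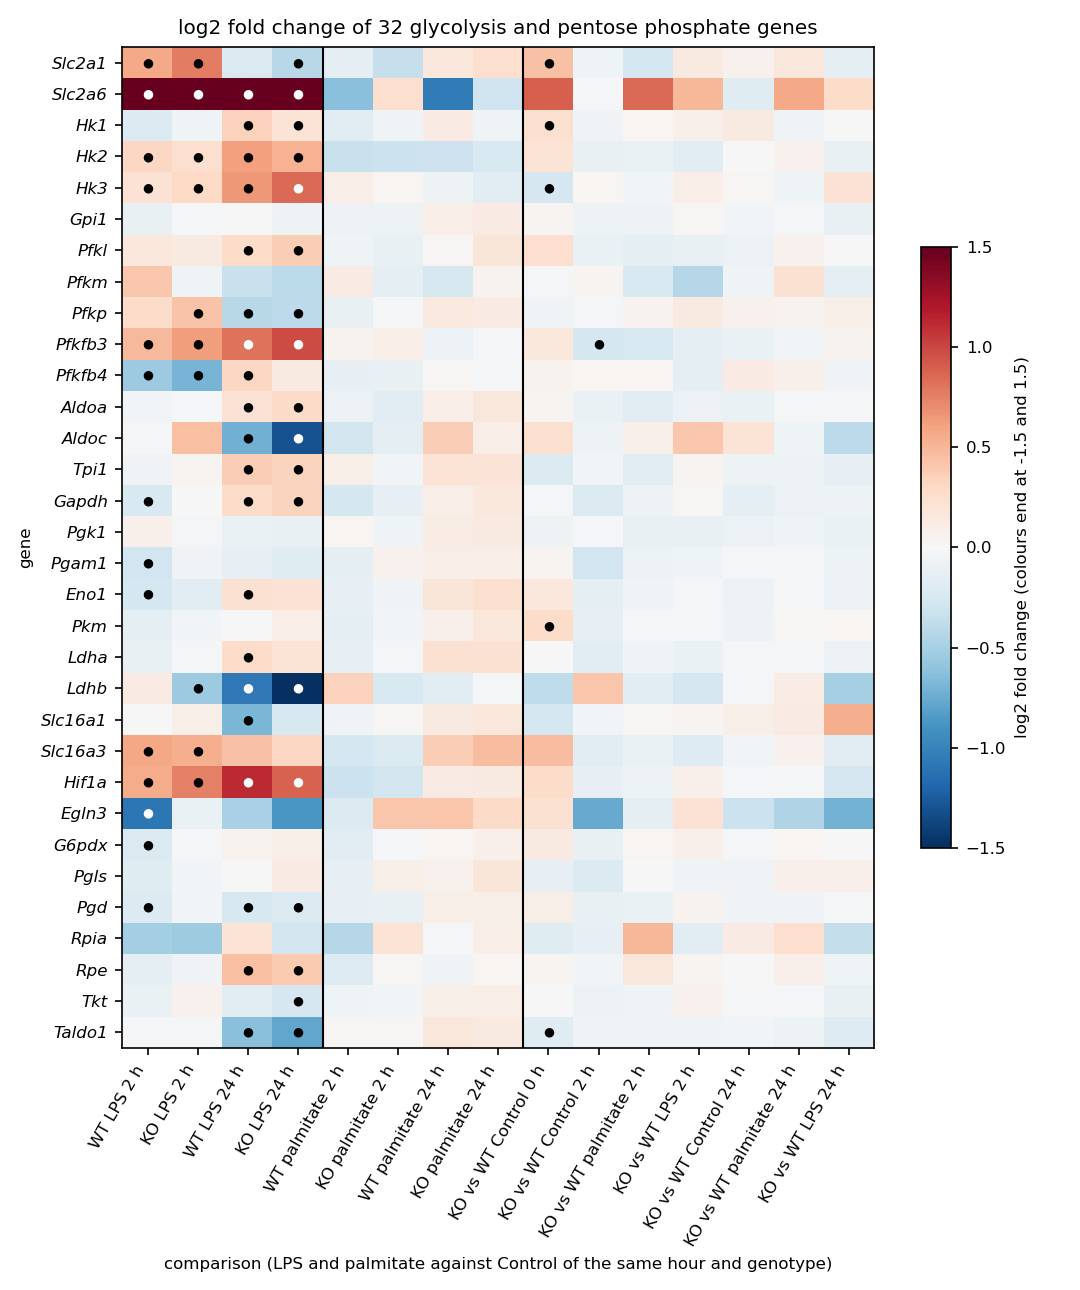
Heatmap of the log2 fold change of each of the 32 genes (rows) in 15 comparisons (columns), 4 of LPS and 4 of palmitate against Control of the same hour and genotype and 7 of KO against WT, on a colour scale that ends at -1.5 and 1.5, with a dot where edgeR's adjusted p was under 0.05. The LPS columns hold 14, 10, 20 and 18 dots, the palmitate columns hold none, and the KO against WT columns hold 5 at 0 h and 1 in Control at 2 h.

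LPS at 24 h raised the hexokinases, several enzymes of the middle of glycolysis, Slc2a6, Pfkfb3, Hif1a and Rpe in both genotypes, and lowered Taldo1, Pgd, Ldhb, Aldoc and Pfkp. In WT, 14 genes were higher and 6 lower, where 19.6% and 19.9% of all tested genes were higher and lower. In KO, 11 were higher and 7 lower, against 19.9% and 21%. In both genotypes, Slc2a6, Hk1, Hk2, Hk3, Pfkl, Pfkfb3, Aldoa, Tpi1, Gapdh, Hif1a and Rpe were higher, 11 of 32 where 15.5% of tested genes were, and Pfkp, Aldoc, Ldhb, Pgd and Taldo1 were lower, 5 of 32 where 16% were. The share lower in both was close to the background. The median log2 fold change over the 32 genes was 0.13 in WT and 0.12 in KO, beside -0.011 and -0.0095 over all tested genes.

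Slc2a6 reached its highest level in the series at 24 h of LPS. It gave 4.49, 4.46 and 4.52 CPM in WT Control and 53.1, 61.2 and 62.6 CPM in WT LPS, and 3.48, 3.28 and 4.81 CPM in KO Control and 75.4, 67.4 and 71.01 CPM in KO LPS. The groups were far apart and did not overlap. Its log2 fold change came to 3.71 ± 0.26 (SE) with an adjusted p of 3.49e-17 in WT and 4.17 ± 0.26 (SE) with an adjusted p of 5.63e-19 in KO, or 13.1-fold and 17.9-fold. Slc2a1 was not raised at this time: its log2 fold change was -0.21 ± 0.13 (SE) with an adjusted p of 0.215 in WT, which was not called, and -0.42 ± 0.13 (SE) with an adjusted p of 0.00924 in KO, where it was lower.

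The 3 hexokinases were all higher at 24 h in both genotypes. Hk3 (ENSMUSG00000025877, chr13:55005985-55021385, minus strand), a hexokinase found mainly in myeloid cells, gave 253, 261 and 260.2 CPM in WT Control and 421, 359 and 439 CPM under LPS. Its KO values were 247, 268 and 268 CPM and 468, 481 and 465 CPM. Every LPS library was above every Control library. The log2 fold change of Hk3 was 0.66 ± 0.08 (SE) with an adjusted p of 1.72e-09 in WT and 0.85 ± 0.08 (SE) with an adjusted p of 6.85e-13 in KO. Hk2, the inducible hexokinase, rose by 0.62 ± 0.084 and 0.52 ± 0.084 (SE) and Hk1, the hexokinase of most tissues, by 0.35 ± 0.079 and 0.21 ± 0.078 (SE) on the log2 scale.

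Pfkfb3 gave 148, 158 and 157 CPM in WT Control and 274, 259 and 283 CPM in WT LPS at 24 h. In KO it gave 142, 148 and 141 CPM and 281, 294 and 271 CPM. Its groups did not overlap and its LPS libraries lay close together. The change on the log2 scale was 0.81 ± 0.063 (SE) with an adjusted p of 1.25e-15 in WT and 0.97 ± 0.063 (SE) with an adjusted p of 2.01e-18 in KO. Hif1a gave 210.3, 183 and 188 CPM in WT Control and 357, 547 and 356 CPM in WT LPS, and 191, 182 and 196 CPM and 368, 332 and 353 CPM in KO. WT LPS library 2 stood far above the other two, and the groups did not overlap. As a log2 fold change this was 1.12 ± 0.10 (SE) with an adjusted p of 4.32e-13 in WT and 0.89 ± 0.10 (SE) with an adjusted p of 4.26e-10 in KO, and 0.89 in WT without that library.

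Of the enzymes that follow hexokinase in glycolysis, 4 were called higher in both genotypes at 24 h. Pfkl (liver-type phosphofructokinase) rose by 0.28 in WT and 0.37 in KO, Aldoa by 0.22 and 0.29, Tpi1 (triose phosphate isomerase) by 0.37 and 0.33, and Gapdh by 0.28 and 0.33 on the log2 scale. Eno1, Ldha (lactate dehydrogenase A) and Pfkfb4 were called higher in WT, at 0.23, 0.27 and 0.31. Their KO values were 0.22, 0.21 and 0.13 and did not pass the test. Several of these calls rested on WT LPS library 2, which lay above the mean of its group's other libraries for 28 of the 32 genes, by a median of 0.31 on the log2(CPM + 1) scale. Without it, 8 genes were higher and 10 lower in WT: Pfkl, Aldoa, Gapdh, Eno1, Ldha and Pfkfb4 were no longer called, and Slc2a1, Pgk1, Pgam1 and Tkt were called lower.

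Among the genes that fell, Taldo1 (ENSMUSG00000025503, chr7:141392199-141402968, plus strand) gave 841, 867 and 906 CPM in WT Control and 541, 654 and 502 CPM under LPS at 24 h. The KO libraries gave 872, 859.5 and 818 CPM and 492, 462 and 524 CPM. All LPS libraries were below all Control libraries. Its log2 fold change came to -0.62 ± 0.064 (SE) with an adjusted p of 9.65e-12 in WT and -0.78 ± 0.064 (SE) with an adjusted p of 6.3e-15 in KO, a level 1.54-fold and 1.72-fold lower. Ldhb (ENSMUSG00000030246, chr6:142490249-142507957, minus strand), the subunit of the lactate dehydrogenase forms that favour oxidation of lactate, gave 29.5, 29.7 and 29.7 CPM in WT Control and 11.5, 16.1 and 14.7 CPM under LPS. Its KO values were 35.01, 32.6 and 21.4 CPM and 8.80, 12.7 and 8.78 CPM. The groups did not overlap, and the KO Control libraries spread widely while those of WT were close together. Ldhb changed by -1.07 ± 0.18 (SE) with an adjusted p of 2.37e-06 in WT and -1.55 ± 0.19 (SE) with an adjusted p of 1.33e-09 in KO on the log2 scale.

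Pfkp (ENSMUSG00000021196, chr13:6579768-6648777, minus strand) gave 62.3, 46.5 and 59.6 CPM in WT Control at 24 h and 36.5, 52.3 and 37.2 CPM under LPS. In KO it gave 53.6, 59.96 and 61.2 CPM and 48.01, 44.1 and 41.7 CPM. The WT groups overlapped and the KO groups did not. The change on the log2 scale was -0.41 ± 0.12 (SE) with an adjusted p of 0.00445 in WT and -0.39 ± 0.12 (SE) with an adjusted p of 0.00546 in KO. Pgd (ENSMUSG00000028961, chr4:149149991-149166771, minus strand), phosphogluconate dehydrogenase, gave 573, 597 and 569 CPM in WT Control and 429, 583 and 463 CPM under LPS, and 539, 582 and 559 CPM and 515, 453 and 478 CPM in KO. WT LPS library 2 lay within the Control range and the other LPS libraries below it. As a log2 fold change this was -0.24 ± 0.072 (SE) with an adjusted p of 0.00648 in WT and -0.22 ± 0.072 (SE) with an adjusted p of 0.0126 in KO. Aldoc (aldolase C) fell by 0.72 in WT and fell by 1.31 in KO, Slc16a1 (the MCT1 lactate transporter) fell by 0.69 in WT, and Tkt (transketolase) fell by 0.25 in KO on the log2 scale.

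By role, the pentose phosphate genes divided at 24 h of LPS. Of the 7 measured here, Rpe (ribulose phosphate epimerase) rose by 0.45 in WT and 0.39 in KO, while Taldo1 and Pgd fell in both and Tkt in KO. G6pdx, the enzyme that commits glucose phosphate to the pathway, was at 0.051 ± 0.075 (SE) with an adjusted p of 0.639 in WT and 0.086 ± 0.074 (SE) with an adjusted p of 0.384 in KO and did not pass the test. Pgls (phosphogluconolactonase) and Rpia (ribose phosphate isomerase) did not pass in either genotype, with intervals of -0.25 to 0.25 and -0.33 to 0.73 in WT. Of the 16 genes called in both genotypes at 24 h, 15 were called in both under every alternative that kept all libraries, the exception being Hk1, whose KO call was lost when all genes with at least 1 count were tested. The WT count of lower genes was 3 without LPS library 1 or LPS library 3 and its count of higher genes was 9 without Control library 3. The WT calls of Pgd and Pfkp were lost without LPS library 1 and also without LPS library 3. The WT call of Aldoc was lost without LPS library 3. In KO the Pgd call was lost without Control library 2 or LPS library 2. Without the KO libraries with fibroblast marker sums over 100 CPM, 11 were higher and 5 lower in KO, and Slc2a1 and Tkt were no longer called. The summed granulocyte markers were 50.8 to 61.2 CPM in WT Control at 24 h and 30.6 to 33.03 CPM under LPS, and 127 to 198 CPM and 42.05 to 63.1 CPM in KO. None of these 8 markers was at 0 in every library, and their part in the falls was not tested.

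**Figure D2:**
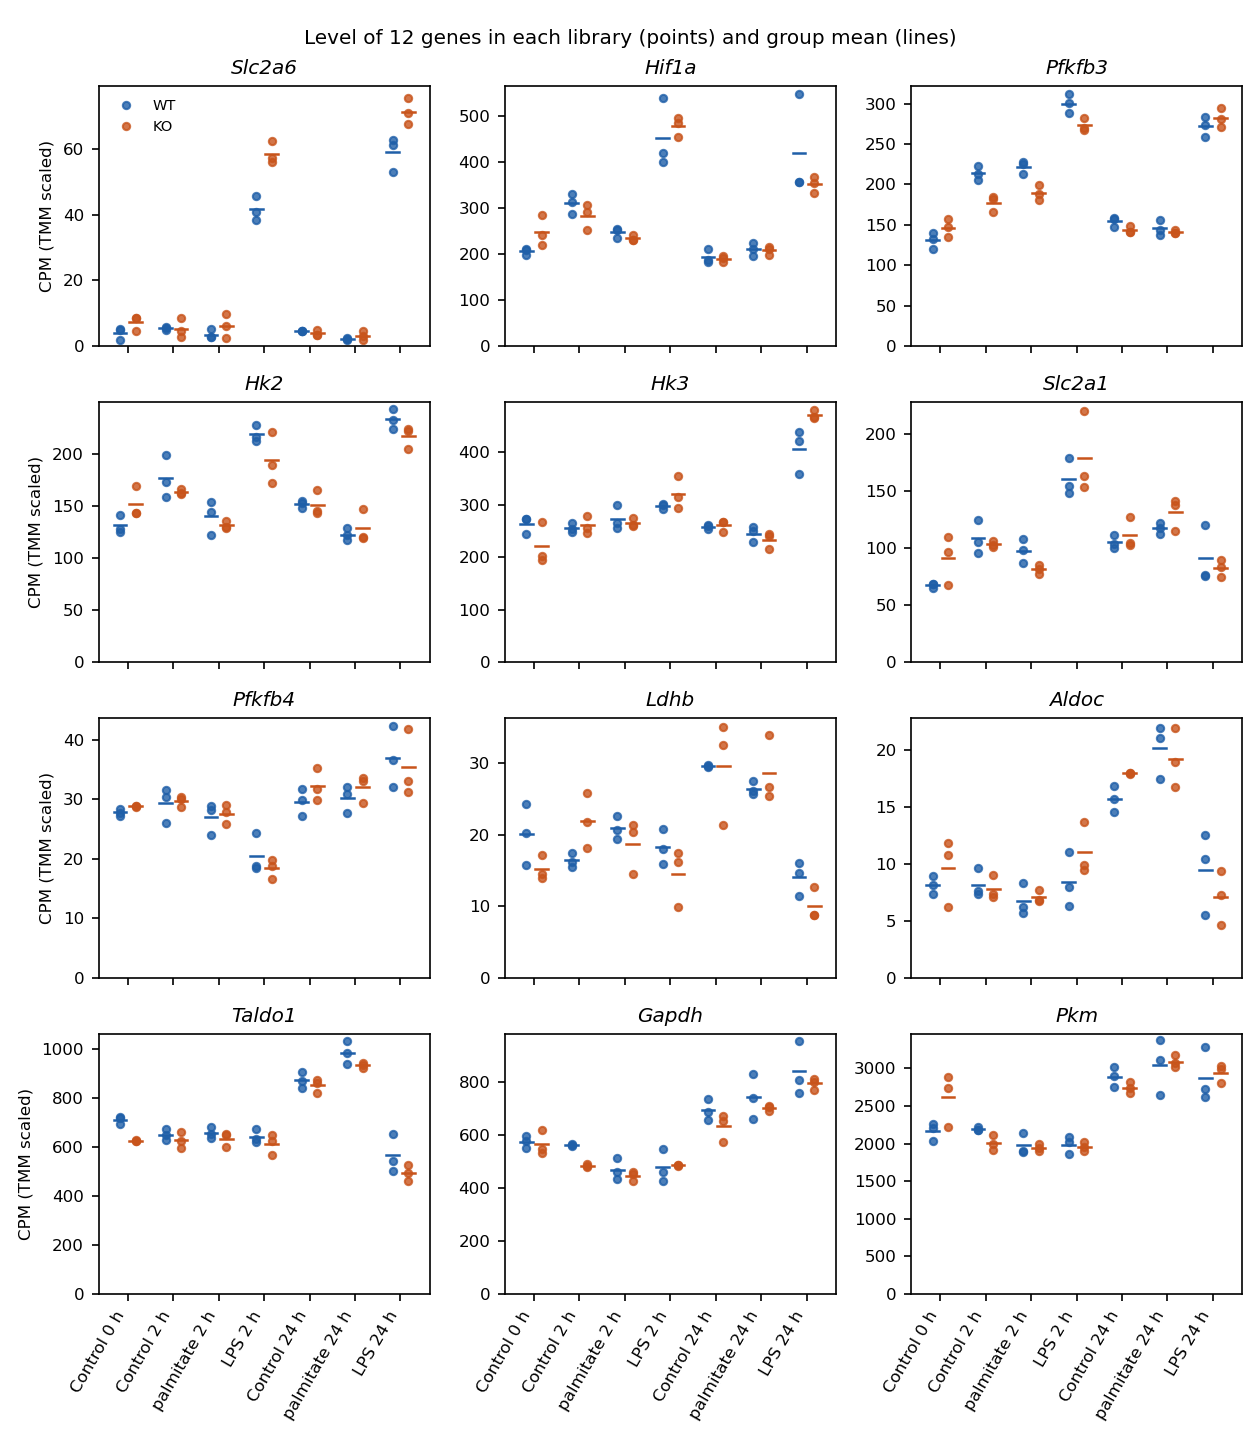
Level of 12 of the genes (one panel each) in every library (points) with the group mean (line), in TMM-scaled CPM on linear axes that start at 0, for 7 conditions (horizontal axis) in WT (blue) and KO (orange), 3 libraries each. Slc2a6 lies below 10 CPM in all Control and palmitate groups and between 38.4 and 75.4 CPM in the LPS groups, while all Ldhb, Aldoc and Taldo1 points under LPS at 24 h lie below Control of that hour.

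The early and late responses to LPS were then compared directly, as the log2 fold change at 24 h minus that at 2 h averaged over both genotypes. The effect was more positive at 24 h for 14 of 32 genes, where 21.7% of all tested genes were, and more negative for 8, where 24.5% were. The share more negative was close to the background. Slc2a1, higher at 2 h in both genotypes and lower at 24 h in KO, had a difference of -0.99 ± 0.13 (SE) with an adjusted p of 1.34e-08, while Slc2a6 gained a further 0.73 ± 0.28 (SE) with an adjusted p of 0.0312. Pfkfb4, lower at 2 h in both genotypes and higher at 24 h in WT, had a difference of 0.84 ± 0.13 (SE) with an adjusted p of 1.56e-07, and its partner Pfkfb3 gained 0.34 ± 0.063 (SE) with an adjusted p of 1.34e-05. The enzymes Rpe, Tpi1, Gapdh, Eno1, Ldha, Aldoa, Hk1, Hk2, Hk3 and G6pdx and the factor Hif1a had more positive effects at 24 h, by 0.19 to 0.51. The effects on Aldoc (-1.24), Ldhb (-1.10), Pfkp (-0.75), Taldo1 (-0.68), Pfkm (-0.54), Slc16a1 (-0.51) and Tkt (-0.19) were more negative. The Slc2a6 difference was not called by DESeq2's Wald test, without the libraries with high fibroblast markers, or without WT Control 2 h library 2, KO Control 2 h library 1 or KO Control 24 h library 2. The differences of Tkt, Pfkm, Slc16a1 and G6pdx were each lost when any 1 of many libraries was left out. Those of Tkt, Slc16a1 and G6pdx were also lost without the libraries with high fibroblast markers. Pfkm and Slc16a1 were lost with all genes that had at least 1 count, and Tkt with only the libraries compared. The 2 h and 24 h effects use separate Control libraries, and the Control levels themselves differed between the times, as given below. Leaving out 1 library gave 18 to 21 calls in place of 22, and leaving out the libraries with high fibroblast markers gave 18.

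**Figure D3:**
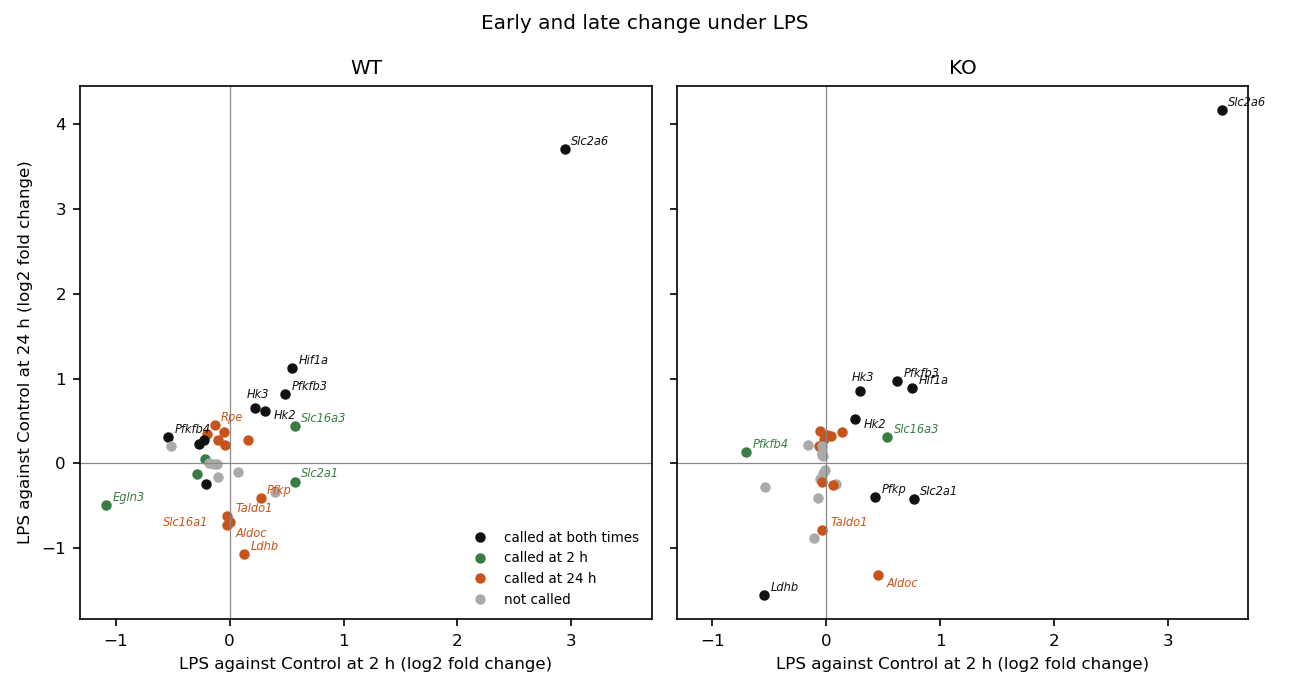
Log2 fold change under LPS at 24 h (vertical axis) against that at 2 h (horizontal axis) for the 32 genes in WT (left) and KO (right), coloured by the times at which the gene was called in either direction, with names for called genes whose change passed 0.4 at either time. Slc2a6 stands at the upper right in both panels, Slc2a1 lies right of 0 and below it, and Ldhb and Aldoc lie lowest.

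Within isozyme families, the share of Slc2a6 was higher and that of Ldhb lower under LPS. Shares were taken per length within each library, and are given as mean ± SD of 3 libraries with no test. Slc2a6 made up 4.46% ± 0.202 of Slc2a1 and Slc2a6 together in WT Control at 24 h and 42.1% ± 5.95 under LPS, and 3.70% ± 1.05 and 48.6% ± 1.04 in KO. At 2 h the same share went from 5.15% ± 0.264 to 22.2% ± 3.09 in WT and from 5.27% ± 2.82 to 26.7% ± 4.32 in KO. Ldhb was 15.4% ± 0.748 of lactate dehydrogenase transcripts in WT Control at 24 h and 6.68% ± 0.545 under LPS, and 15.5% ± 2.74 and 5.16% ± 1.08 in KO, the remainder being Ldha. In both families the Control and LPS libraries did not overlap at 24 h. Pfkl was 59.2% ± 3.02 of the phosphofructokinases in WT Control at 24 h and 69.3% ± 2.16 under LPS, and 57.7% ± 4.69 and 69.8% ± 1.56 in KO. The muscle-type Pfkm went from 20.97% ± 1.55 to 16.3% ± 3.69 in WT and Pfkp from 19.8% ± 2.01 to 14.4% ± 1.61, and for each of these 3 genes the WT libraries of Control and LPS did not overlap. In KO the libraries of Pfkl and Pfkp did not overlap and those of Pfkm did.

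Hk3 was the main hexokinase in every group. Its share was 64.5% ± 0.411 in WT Control and 66.3% ± 3.42 in WT LPS at 24 h, and 64.1% ± 1.24 and 70.7% ± 0.934 in KO. Hk2 made up 23.4% ± 0.263 and 23.6% ± 2.15 of the family in WT, and Hk1 12.1% ± 0.639 and 10.1% ± 1.29. By the length of the longest transcript in place of the union of exons, Hk1 made up 19.6% ± 0.942 and 16.6% ± 1.97. The Control and LPS libraries overlapped in the Hk3 share in WT and not in KO, and did not overlap in the Hk1 share in either genotype. Pfkfb3 was 82.5% ± 0.956 of Pfkfb3 and Pfkfb4 in WT Control at 2 h and 90.4% ± 1.06 under LPS, and 77.1% ± 0.770 and 82.6% ± 2.68 at 24 h. Aldoa was nearly all of the aldolase pair, with Aldoc at 1.21% ± 0.152 in WT Control and 0.625% ± 0.213 in WT LPS at 24 h, or 0.758% ± 0.0957 and 0.391% ± 0.133 by the longest transcript. Slc16a1 was 34.7% ± 1.75 of the pair with Slc16a3 in WT Control at 24 h and 20.4% ± 4.79 under LPS, and 36.99% ± 3.05 and 28.5% ± 3.43 in KO.

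**Figure D4:**
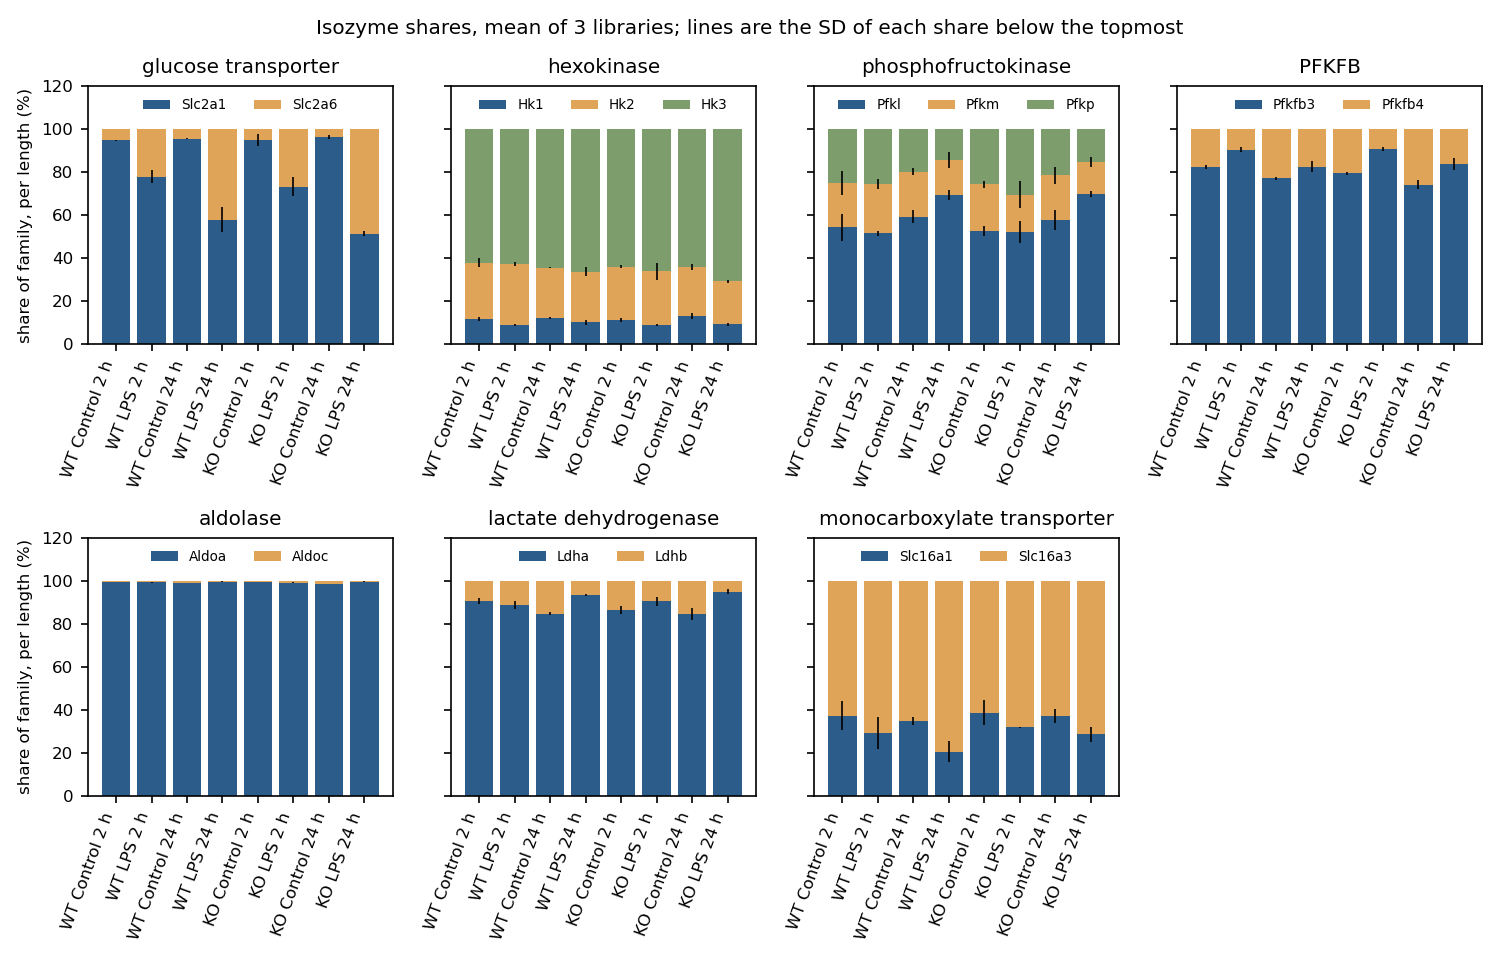
Share of each isozyme in its family (vertical axis, percent of length-scaled CPM from 0) in Control and LPS groups at 2 and 24 h (horizontal axis) for 7 families, as stacked means of 3 libraries with SD lines on each share below the topmost. Slc2a6 grows from under 6% in Control groups to 42.1% in WT and 48.6% in KO under LPS at 24 h, and Ldhb shrinks from 15.4% and 15.5% in Control at 24 h to 6.68% and 5.16%. These values use the union of exons as length and depend on that choice.

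Palmitate changed none of the 32 genes past the threshold. In edgeR's test 0 of 32 were called at 2 h in WT and 0 in KO, where 0.275% and 0.112% of all tested genes were called. At 24 h 0 of 32 were called in WT and 0 in KO, where 0.852% and 0.877% of tested genes were, so a count of 0 was near the background in each case. At an unadjusted p under 0.05 the counts were 4, 4, 5 and 9 of 32 in WT at 2 h, KO at 2 h, WT at 24 h and KO at 24 h. Among all tested genes, 7.45%, 4.61%, 9.02% and 7.97% were under that p. The lowest adjusted p among the 32 genes was 0.0866, 0.26, 0.0765 and 0.339 in the same order. Median log2 fold changes over the 32 were -0.12, -0.048, 0.094 and 0.12, beside 0, -0.0017, -0.00075 and -0.0035 over all tested genes. The change was above 0 for 7, 10, 24 and 25 of the 32. Its sign was the same in WT and KO for 21 of 32 genes at 2 h, beside 53.8% of all tested genes. At 24 h it was the same for 27, beside 58.0%. These shared shifts were not tested. The 95% interval of the log2 fold change lay within 0.5 on either side of 0 for 23, 24, 24 and 25 of the 32 genes, which bounds the change that could have been missed for those genes.

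Hk2 had the lowest adjusted p of the 32 genes in each of these comparisons, with log2 fold changes of -0.33 ± 0.086 and -0.32 ± 0.086 at 2 h and -0.31 ± 0.088 and -0.23 ± 0.087 (SE) at 24 h in WT and KO. Its WT levels at 24 h were 148, 153 and 154 CPM in Control and 121, 117 and 129 CPM with palmitate. In KO they were 143, 165 and 144 CPM and 147, 119 and 119.6 CPM. The WT groups did not overlap and the KO groups did. Hif1a was at -0.32 ± 0.10 and -0.27 ± 0.10 at 2 h, and Slc16a3 at 0.37 ± 0.20 and 0.47 ± 0.20 at 24 h (SE), none past the threshold. Slc2a6, on 10 to 34 counts per library in Control and palmitate at 24 h, was at -1.05 ± 0.42 in WT and -0.30 ± 0.38 in KO at 24 h (SE). The fatty acid response genes Plin2, Angptl4 and Cpt1a were called in all 4 of these palmitate comparisons, at log2 fold changes of 0.50 to 3.61.

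The count of 0 depended on the procedure. With all genes that had at least 1 count, 3 genes were called lower in WT at 2 h (Hk2, Gapdh and Hif1a), 2 lower in KO at 2 h (Slc2a1 and Hk2), Hk2 lower in WT at 24 h and Eno1 higher in KO at 24 h. With a fit on only the libraries compared, the counts were 3, 2, 1 and 4, the last being Eno1, Ldha, Pkm and Slc16a3, all higher in KO. By DESeq2's Wald test, Hk2 was lower in WT at 2 h and at 24 h and none was called in KO, with no adjusted p given for 5 of the 32 in WT and 2 in KO at 24 h. The palmitate effect at 24 h minus that at 2 h, averaged over genotypes, was positive for Gapdh at 0.32 ± 0.077 (SE) with an adjusted p of 0.0186, Aldoa at 0.26 ± 0.071 (SE) with an adjusted p of 0.0466 and Hif1a at 0.43 ± 0.10 (SE) with an adjusted p of 0.0195, 3 of 32 where 1.28% of all genes were called. That count ran from 1 to 6 when 1 library was left out and was 0 without the libraries with high fibroblast markers. It was 6 without WT palmitate 24 h library 2, 4 without WT palmitate 2 h library 3 or KO Control 24 h library 1, 1 without WT palmitate 2 h library 1, WT palmitate 24 h library 1, KO Control 2 h library 1 or KO Control 24 h library 3, and 2 or 3 without any other.

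**Figure D5:**
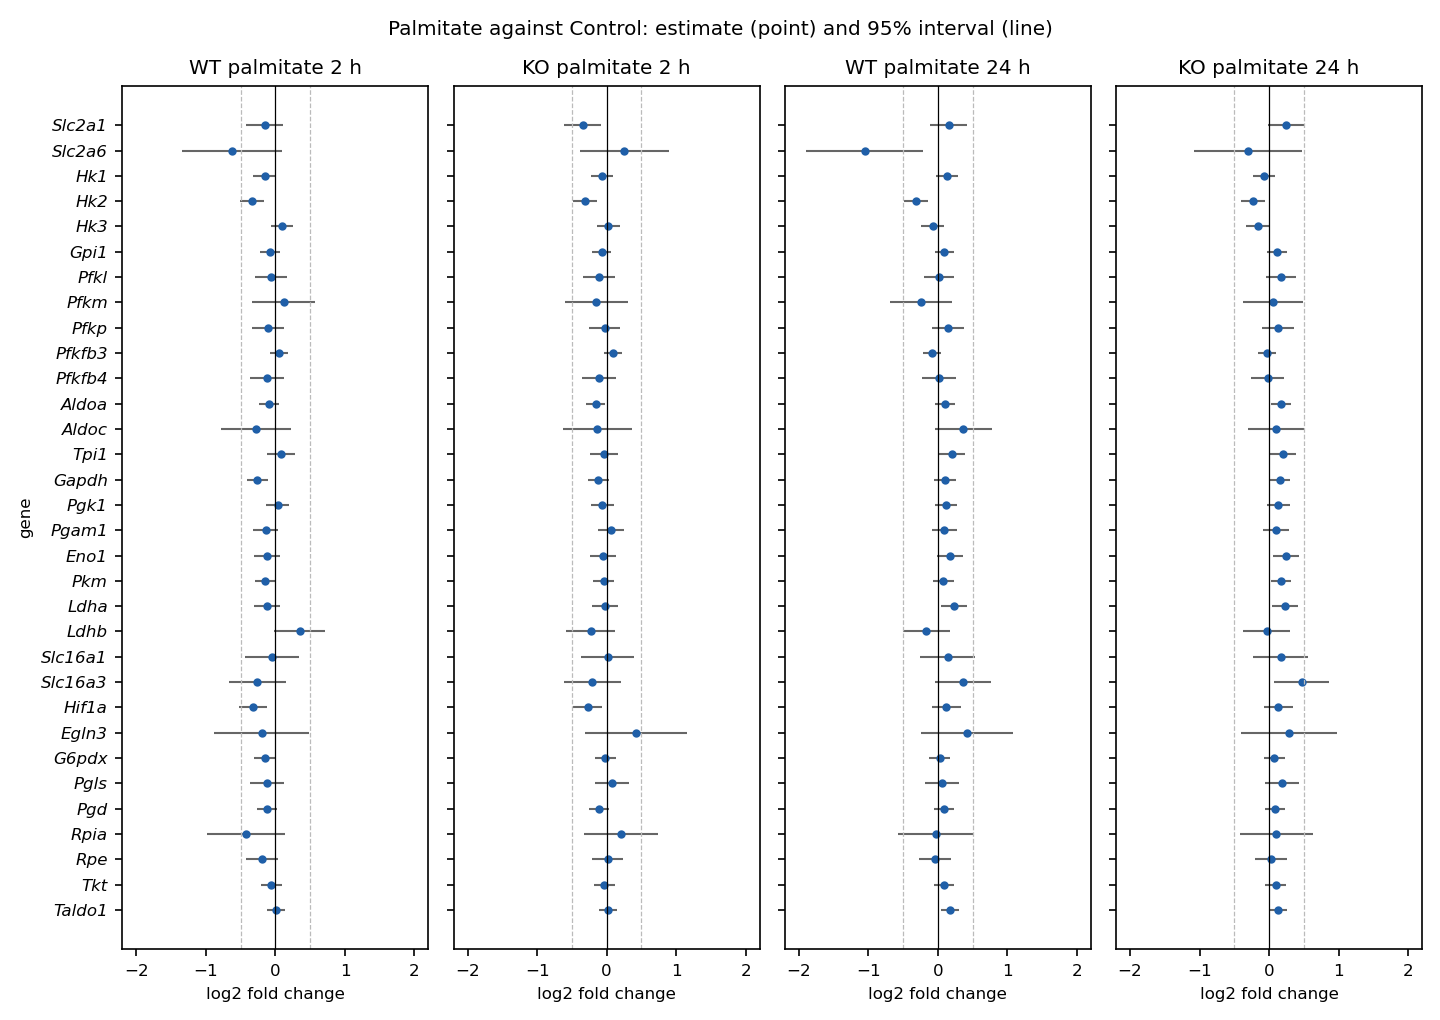
Log2 fold change under palmitate against Control (horizontal axis) with its 95% interval (lines) for the 32 genes (rows) in WT and KO at 2 and 24 h, with dashed lines at -0.5 and 0.5. The intervals of 23, 24, 24 and 25 genes lie between the dashed lines, and the wide ones belong to Slc2a6, Egln3, Rpia, Aldoc and Pfkm, which had few counts.

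The treatments were also set against each other at the same hour, averaged over genotypes, without the Control libraries. At 2 h, 9 of 32 genes were higher with LPS than with palmitate and 2 lower, where 19.2% and 15.7% of tested genes were. The 9 were Slc2a6 (3.40), Hif1a (0.95), Slc2a1 (0.92), Slc16a3 (0.79), Hk2 (0.61), Pfkfb3 (0.48), Pfkp (0.42), Pfkl (0.23) and Hk3 (0.20) as log2 differences, and the 2 were Pfkfb4 (-0.51) and Egln3 (-0.70). At 24 h, 11 were higher and 12 lower, where 25.4% and 26.4% of tested genes were. Slc2a6 (4.62) and Pfkfb3 (0.95) led the higher genes and Aldoc (-1.25) and Ldhb (-1.21) the lower. Gpi1, the isomerase that follows hexokinase, was lower with LPS than with palmitate at 24 h, at -0.14 ± 0.05 (SE) with an adjusted p of 0.0134, although it was called against Control in none of the 8 treatment comparisons. The Gpi1 call was lost without WT palmitate library 1, WT LPS library 1 or KO palmitate library 2. At 2 h the Egln3 call was lost by DESeq2's Wald test, with all genes that had at least 1 count, and with only the libraries compared. The Pfkl call at 2 h was lost without the libraries with high fibroblast markers. Both 2 h calls were also lost when any 1 of several libraries was left out.

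Control cultures changed with time as well, averaged over genotypes. At 2 h against 0 h, 4 of 32 genes were higher and 3 lower, where 9.35% and 7.36% of tested genes were. Higher were Pfkfb3, Hif1a, Slc2a1 and Hk2. Pfkfb3 gave 121, 139.9 and 133 CPM at 0 h and, as above, 206 to 223 CPM at 2 h in WT, and 135, 147 and 157 and 166 to 184 CPM in KO. Hif1a gave 210.1, 198 and 209 CPM at 0 h in WT and 241, 219 and 284 CPM in KO. The groups of Pfkfb3 did not overlap in either genotype, and those of Hif1a overlapped in KO. The log2 differences were 0.49 ± 0.045 (SE) with an adjusted p of 1.46e-12 for Pfkfb3 and 0.39 ± 0.073 (SE) with an adjusted p of 4.29e-05 for Hif1a. Slc2a1, with 0 h levels of 68.4, 68.5 and 64.6 CPM in WT and 96.6, 67.6 and 109 CPM in KO, rose by 0.44 ± 0.10 (SE) with an adjusted p of 0.000476. Hk2, with 2 h levels of 172, 199 and 158 CPM in WT and 162, 162 and 166 CPM in KO, rose by 0.27 ± 0.06 (SE) with an adjusted p of 0.000794 from 0 h levels of 125, 141 and 128 CPM in WT and 143, 143 and 168 CPM in KO. The KO groups of both genes overlapped between 0 h and 2 h.

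The 3 lower genes at 2 h of Control were changed little. G6pdx went from 264, 268 and 266 CPM to 251, 227 and 268 CPM in WT and from 313, 262 and 298 CPM to 221, 231 and 240.1 CPM in KO, a log2 difference of -0.22 ± 0.054 (SE) with an adjusted p of 0.00233. Pkm went from 2035, 2265 and 2205 CPM to 2174, 2181 and 2214 CPM in WT and from 2744, 2219.8 and 2884 CPM to 1911, 1992 and 2110.2 CPM in KO, a difference of -0.18 ± 0.053 (SE) with an adjusted p of 0.00909. The WT groups of both genes overlapped and the KO groups did not. Tkt went from 384, 380.5 and 367 CPM to 343, 339.8 and 353 CPM in WT and from 383, 361 and 384 CPM to 308, 324 and 341 CPM in KO, a difference of -0.17 ± 0.053 (SE) with an adjusted p of 0.0175. Its 2 h libraries were below its 0 h libraries in both genotypes. Without KO Control 0 h library 3, the 3 lower calls were 1.

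At 24 h against 0 h in Control, 11 of 32 genes were higher and 1 lower, where 7.9% and 8.62% of tested genes were. Pgk1 (phosphoglycerate kinase) gave 174, 185 and 185 CPM at 0 h and 249.6, 279 and 251 CPM at 24 h in WT, and 167, 159 and 192 CPM and 235, 254 and 245 CPM in KO. Its groups did not overlap. The log2 difference was 0.51 ± 0.058 (SE) with an adjusted p of 2.01e-09. Taldo1 gave 718, 693 and 722 CPM at 0 h in WT and 625, 625 and 627 CPM in KO, all below the 24 h Control libraries given above, a difference of 0.37 ± 0.045 (SE) with an adjusted p of 1.16e-08. Ldhb gave 24.2, 20.2 and 15.7 CPM at 0 h in WT and 14.5, 17.1 and 14.03 CPM in KO and was higher at 24 h by 0.76 ± 0.13 (SE) with an adjusted p of 8.38e-06. Aldoc gave 7.42, 8.999 and 8.20 CPM at 0 h and 16.8, 14.6 and 15.7 CPM at 24 h in WT, and 6.28, 10.8 and 11.9 CPM and 17.9, 18.04 and 17.98 CPM in KO, a difference of 0.91 ± 0.16 (SE) with an adjusted p of 1.75e-05.

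The libraries of Ldhb and Aldoc at 24 h were all above those at 0 h. This comparison shares its 24 h Control libraries with that of LPS, so levels are set side by side. Under LPS at 24 h, Ldhb stood at 14.1 ± 2.36 CPM in WT and 10.1 ± 2.26 CPM in KO, against 20.1 ± 4.25 CPM and 15.2 ± 1.66 CPM at 0 h (mean ± SD, n = 3). Aldoc stood at 9.51 ± 3.62 CPM in WT and 7.11 ± 2.36 CPM in KO, against 8.21 ± 0.790 CPM and 9.65 ± 2.97 CPM at 0 h, and its libraries overlapped between LPS at 24 h and 0 h in both genotypes. The other genes higher in Control at 24 h were Slc2a1 (0.47), Eno1 (0.29), Pfkl (0.26), Ldha (0.24), Pkm (0.24), Gapdh (0.22) and G6pdx (0.20) as log2 differences. Hif1a was lower, at -0.24 ± 0.074 (SE) with an adjusted p of 0.0192, with its WT libraries overlapping between the times and its KO libraries not. That call was lost when any 1 of 4 libraries was left out: WT Control 24 h library 2 or 3, KO Control 0 h library 3 or KO Control 24 h library 2.

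The comparison of KO with WT asks whether myeloid Irf5 deletion altered these genes. Its limit is that whole-gene Irf5 counts were not lower in libraries labelled KO, and such counts do not test the deletion. At 0 h, 5 of 32 genes (15.6%) were called, 3 higher and 2 lower in KO, where 12.5% of tested genes were. The share called was near the background. This comparison called 1448 of the 11624 tested genes, and the others between KO and WT called 8 to 57. Slc2a1 differed by 0.44 ± 0.14 (SE) with an adjusted p of 0.0274, with the library values given above, in which 1 KO library lay within the WT range. Pkm differed by 0.27 ± 0.074 (SE) with an adjusted p of 0.0113, also with 1 KO library within the WT range. Hk1 gave 107, 121 and 105 CPM in WT and 139, 115 and 139.6 CPM in KO, a difference of 0.24 ± 0.079 (SE) with an adjusted p of 0.0351. Hk3 gave 243, 274 and 273 CPM in WT and 195, 267 and 202 CPM in KO, a difference of -0.25 ± 0.081 (SE) with an adjusted p of 0.0354. The groups of Hk1 and Hk3 overlapped. Taldo1 differed by -0.19 ± 0.064 (SE) with an adjusted p of 0.0463, and its KO libraries were all below those of WT. The KO libraries spread along the list, with library 3 above the mean of its group's other libraries for 27 of the 32 genes, by a median of 0.22 on the log2(CPM + 1) scale. The count of 5 fell to 1 without WT library 3, KO library 1 or KO library 3, to 2 without WT library 1 or 2, and was 7 without KO library 2. The KO granulocyte markers summed to 72.9 to 81.5 CPM at 0 h and those of WT to 47.4 to 54.5 CPM, and the fibroblast markers to 42.6 to 70.2 CPM and 0.905 to 1.42 CPM. Whether these cells contributed to the 5 differences was not tested.

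In Control at 2 h, 1 of 32 genes was called, where 0.49% of tested genes were. This was Pfkfb3, which gave 223, 213 and 206 CPM in WT and 166, 184 and 182 CPM in KO. The groups did not overlap, and the difference was -0.27 ± 0.063 (SE) with an adjusted p of 0.0307. The call was lost without any 1 of 5 of the 6 libraries, all but WT library 3, and without the KO library with high fibroblast markers. In the other 5 settings 0 of 32 were called, where 0.146% of tested genes were with palmitate at 2 h, 0.465% with LPS at 2 h, 0.12% in Control at 24 h, 0.0688% with palmitate at 24 h and 0.146% with LPS at 24 h. At an unadjusted p under 0.05 in edgeR's test the counts were 3, 2, 0, 0 and 5 in that order. The shares of all tested genes were 8.88%, 11.5%, 5.05%, 7.67% and 9.08%. DESeq2's Wald test called 0 in each, with no adjusted p for 11 of the 32 with LPS at 24 h.

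No gene of the 32 had a treatment effect that differed between KO and WT past the threshold. The interaction called 0 of 32 for LPS at 2 h and 0 for palmitate at 2 h, where 0% and 0% of tested genes were called, and 0 for LPS and 0 for palmitate at 24 h, where 0.0086% and 0% were. At an unadjusted p under 0.05 in edgeR's test, 2, 1, 0 and 0 of the 32 were found for LPS 2 h, palmitate 2 h, LPS 24 h and palmitate 24 h. The shares of all tested genes were 6.97%, 4.18%, 5.4% and 3.54%. DESeq2's Wald test also called 0 in each, with no adjusted p for 12 of the 32 in the LPS comparison at 2 h. The interval of the difference lay within 0.5 on either side of 0 for 20, 21, 21 and 24 of the 32 genes, so a genotype effect of that size on the response was outside the interval for most of them. For Slc2a6 under LPS the KO minus WT difference in log2 fold change had an interval of -0.25 to 1.31 at 2 h and -0.38 to 1.29 at 24 h. For Hif1a it was -0.085 to 0.49 and -0.53 to 0.061, and for Ldhb -1.22 to -0.12 and -1.01 to 0.05. The sign of the LPS effect was the same in WT and KO for 25 of 32 genes at 2 h, beside 72.7% of all tested genes, and for 30 of 32 at 24 h, beside 82.0%.

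Other genes around the pathway were counted from written lists. The counts that follow stand beside shares of all tested genes called higher and lower of 14% and 9.1% in WT and 14.7% and 9.16% in KO at 2 h, and of 19.6% and 19.9% in WT and 19.9% and 21% in KO at 24 h. Of 14 tested genes of a second list of glycolysis and its regulators, 2 were higher and 0 lower in WT at 2 h of LPS, 1 and 1 in KO, 3 and 1 in WT at 24 h and 4 and 2 in KO. Among them, Adpgk (the ADP-dependent glucokinase) rose by 0.52 in WT and 0.37 in KO and Bsg (basigin, the chaperone of the lactate transporters) by 0.41 and 0.38 at 24 h. Of 8 further pentose phosphate genes tested, none was called at 2 h, 1 was higher and 1 lower in WT at 24 h, and 2 and 1 in KO. Dera (deoxyribose phosphate aldolase) rose by 0.54 and 0.76 and Prps2 (phosphoribosyl pyrophosphate synthetase) changed by -0.73 and -0.44.

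Glycogen genes that were called under LPS were lower, with 1 exception in KO at 24 h. Of 11 tested, 0 were higher and 4 lower in WT at 2 h, where 9.1% of all tested genes were lower, 0 and 3 in KO, 0 and 5 in WT at 24 h and 1 and 8 in KO, where 19.9% and 21% were lower, with medians of -0.26, -0.16, -0.32 and -0.43 in that order. Gyg (glycogenin) was at -0.86 in WT and -0.98 in KO, and Phka2 (a phosphorylase kinase subunit) at -0.84 and -0.84 at 24 h. Of 5 tested gluconeogenesis genes, 0 were higher in any LPS comparison and 2, 1, 1 and 1 lower in WT 2 h, KO 2 h, WT 24 h and KO 24 h. Of 13 tested genes of pyruvate entry into mitochondria, 1 was higher and 1 lower in WT at 2 h, 1 and 3 in KO, and 2 and 2 in both genotypes at 24 h. Pdk1, the kinase that inhibits pyruvate dehydrogenase and a known HIF target, was at -0.71 in WT and -0.85 in KO, and Dlat, a subunit of the dehydrogenase, at 0.47 and 0.48.

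Of 23 tested genes of the hypoxia pathway other than the 32, 4 were higher and 3 lower in WT at 2 h of LPS, and 5 and 3 in KO. At 24 h, 1 was higher and 13 lower in WT, where 19.6% and 19.9% of all tested genes were, and 2 and 11 in KO, where 19.9% and 21% were, with medians over the 23 of -0.39 and -0.24. Bhlhe40 (a transcriptional repressor) was at -2.02 in WT and -1.91 in KO and Rora (a nuclear receptor) at -1.82 and -1.73 at 24 h. Cited2, an inhibitor of HIF-1α binding to its coactivator, was at 1.64 in WT and 1.72 in KO at 2 h and at -1.14 in WT at 24 h. With palmitate, 1 of 8 pentose phosphate genes was higher in KO at 24 h and 0 were called in the other lists and comparisons.

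Where reads can be shared, values are less certain. Of the 32 genes, 7 have near-identical copies elsewhere in the table, at most 40 for Gapdh, and those copies held at most 4.98% of the counts for Pgam1, 3.03% for Ldhb, 1.85% for Eno1 and under 1% for Gapdh, Pgk1, Gpi1 and Ldha. The exons of Pfkm, Pfkp, Tpi1, Gapdh, G6pdx and Rpe overlap an expressed gene on the other strand (Senp1, Pitrm1, Spsb2, Iffo1, Ikbkg and Kansl1l), and the strand setting of the counting is not given in the sources used here.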

How the data were processed

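Per the labels and the study's methods, the authors sequenced ribosome-depleted total RNA as stranded paired-end libraries (SMARTer Stranded Total RNA Pico v2), trimmed reads and aligned them to the mouse genome build mm10. The submitters' processing notes name fastp 0.19.11 and STAR 2.7.3a. The annotation release and strand setting are not given in the sources used here. The authors deposited 1 table of raw counts, 1 row per Ensembl gene identifier, with 42 columns, all used. Columns were matched to groups by genotype, treatment and hour, and library numbers 1 to 3 only name a column. Of 37310 identifiers, 32620 had a symbol, and 12146 had no counts.

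Counts were scaled by TMM, filtered (filterByExpr, 11624 genes) and tested in 1 model of the 14 groups by edgeR 4.0.16 quasi-likelihood tests (R 4.3.3, limma 3.58.1, 25 contrasts, Benjamini-Hochberg adjustment, threshold 0.05). Standard errors are the log2 fold change over the root of F. Intervals cover 95%. DESeq2 1.42.0 was an alternative, beside RLE factors, all genes with at least 1 count, fits on the libraries compared, leaving out each library, longest-transcript lengths and, added after seeing the data, leaving out the 5 libraries with fibroblast marker sums over 100 CPM. The scripts were tested on simulated data. No 2 libraries of a group agreed within sampling noise (chi-square per degree of freedom 1.93 to 9.32).

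The 32 genes and all lists were chosen with earlier results of these data known. Library values were given for up to 4 genes per direction called in both genotypes with the smallest adjusted p in WT, and for every gene called between genotypes. The isozyme families were given by shares. The promoters shown and the genes named as lost or gained were chosen after their values were seen. Gene coordinates are from GENCODE (mm10) and promoters from RefSeq, where all 32 symbols matched and 9 have several starts.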

Additional observations from a re-analysis of the deposited data

Results flagged for a closer look

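Of the 32 genes, 22 had an LPS effect at 24 h that differed from that at 2 h in the test of the difference itself (edgeR, averaged over both genotypes, with separate Control libraries at each hour). More positive effects were called for 21.7% of all tested genes and more negative ones for 24.5%, the latter close to the share among the 32. As log2 differences of the effects, 24 h minus 2 h, the 14 positive values were Pfkfb4 0.84, Slc2a6 0.73, Rpe 0.51, Hk3 0.50, Eno1 0.44, Gapdh 0.42, Hk1 0.41, Tpi1 0.36, Hif1a 0.35, Pfkfb3 0.34, Ldha 0.31, Aldoa 0.29, Hk2 0.28 and G6pdx 0.19. The 8 negative values were Aldoc -1.24, Ldhb -1.10, Slc2a1 -0.99, Pfkp -0.75, Taldo1 -0.68, Pfkm -0.54, Slc16a1 -0.51 and Tkt -0.19. Pfkm is among them although LPS called it in neither genotype at either hour. The calls of Tkt, Pfkm, Slc16a1, G6pdx and Slc2a6 were lost under some alternatives, as given above.

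The palmitate effect differed between the hours by the same test for Hif1a (0.43), Gapdh (0.32) and Aldoa (0.26), again as 24 h minus 2 h on the log2 scale. It was called for 1.28% of all tested genes. All groups held 3 libraries, so Dixon's test for a single library far from the others was not run. WT LPS 24 h library 2 and KO Control 0 h library 3, which lay above their groups for most of the 32 genes, are described with the results they touch.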

How the results depend on the processing

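No sign of a called gene reversed under any alternative run. Of the calls of the 32 genes over all comparisons, 139 were kept and 7 lost by DESeq2's Wald test, 141 and 5 with RLE size factors, 135 and 11 with all genes that had at least 1 count, and 138 and 8 with only the libraries compared. With all genes that had at least 1 count the number called was 3 for palmitate in WT at 2 h, 2 in KO at 2 h, 1 in WT at 24 h and 1 in KO at 24 h, where the main value was 0. It was 0 for KO against WT in Control at 2 h (main 1), 1 for KO against WT with LPS at 24 h (main 0) and 8 for the palmitate effect at 24 h minus 2 h (main 3). With only the libraries compared it was 3, 2, 1 and 4 for the same palmitate comparisons, 3 for KO against WT in Control at 2 h, 9 for the palmitate effect at 24 h minus 2 h and 11 for Control at 2 h against 0 h (main 7). DESeq2's Wald test gave 1 for palmitate in WT at 2 h and 1 at 24 h. Without the 5 libraries with high fibroblast markers, an alternative chosen after seeing the data, the number was 0 for KO against WT in Control at 2 h and 0 for the palmitate effect at 24 h minus 2 h. The causes of these shifts were not tested. No scaling moved the median of all genes by as much as 0.1 on the log2 scale.

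Leaving out 1 library at a time gave 7 to 10 calls for LPS in WT at 2 h (main 14), 7 to 9 in KO at 2 h (10), 15 to 19 in WT at 24 h (20) and 16 to 17 in KO at 24 h (18). It gave 0 to 1 for palmitate in WT at 2 h and 0 to 0 in the other palmitate comparisons, the interactions and KO against WT outside Control at 0 and 2 h. For KO against WT it gave 1 to 7 at 0 h (main 5) and 0 to 1 in Control at 2 h (main 1). The ranges were 18 to 21 for the LPS effect at 24 h minus 2 h (22), 1 to 6 for that of palmitate (3), 9 to 12 and 21 to 23 for LPS against palmitate at 2 and 24 h (11 and 23), and 5 to 10 and 10 to 14 for Control at 2 and 24 h against 0 h (7 and 12). No paired analysis was possible because the columns of the count table carry no replicate numbers, so no library can be matched to one of another group. Depth limits Egln3, Rpia, Slc2a6 outside LPS, Pfkm, Aldoc, Ldhb and Slc16a1, which had under 52 counts in at least 1 library.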
